A study of Mus musculus with 8 samples.

Results

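The TRIM family was described at the level of open chromatin in the mouse cerebral cortex. Its members were the protein-coding genes of the GENCODE annotation of mm10 whose symbol is Trim followed by a number, which gave 68 of 21911 protein-coding genes. No measured value entered this rule, although it was chosen with earlier results of these data known. ATAC-seq, in which the Tn5 transposase cuts and tags accessible DNA, was performed on nuclei of the cortex of 4 sham and 4 BCAS mice, with 1 library per mouse. All mice were C57BL/6 males, about 14 weeks old when the cortex was taken, 3 weeks after surgery. BCAS (bilateral carotid artery stenosis) mice carried a microcoil of 0.16 mm inner diameter on the right and of 0.18 mm on the left common carotid artery, which narrows both arteries and lowers cerebral blood flow without closing them. In sham mice the arteries were exposed without coils. The labels call the tissue the right cerebral cortex, while the study's library quality table describes cortex of the brain without cerebellum and olfactory bulb. The comparison asked where chromatin at TRIM genes differed after hypoperfusion.

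TRIM proteins typically carry a RING finger, B-boxes and a coiled coil, although not every member has all of them. Most act as ubiquitin ligases that attach ubiquitin through the RING finger. The part that follows the coiled coil sorts them into groups, and the PRY-SPRY domain, which recognises partner proteins such as viral capsids, is the most frequent. Many PRY-SPRY members are induced by interferon and restrict viruses or tune innate immune signaling, and in the brain microglia are among the cells that mount such responses. A different set of members serves neurons, for example at the axonal cytoskeleton.

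The members on which the results turned lie side by side on chromosome 7, in a cluster of 10 PRY-SPRY genes from Trim6 to Trim30d that spans 295 kb with 3 kb on each side. Upstream sequences (the 250 bases before the RefSeq start site, GRCm38) are shown for the cluster members whose upstream window held a match to an interferon regulatory factor (IRF) or PU.1 motif, and for Trim26, a PRY-SPRY gene on chromosome 17 that held 2 overlapping IRF matches. All are written in the direction of transcription, and capitals mark the matches. The motifs searched on both strands were PU.1 (GAGGAAGT), IRF (GAAA, any 2 bases, GAAA), PU.1-IRF (GGAA, any 2 bases, GAAA, which can overlap an IRF match) and AP-1 (TGANTCA).
Trim30a, chr7:104465194-104465443, minus strand, an IRF match: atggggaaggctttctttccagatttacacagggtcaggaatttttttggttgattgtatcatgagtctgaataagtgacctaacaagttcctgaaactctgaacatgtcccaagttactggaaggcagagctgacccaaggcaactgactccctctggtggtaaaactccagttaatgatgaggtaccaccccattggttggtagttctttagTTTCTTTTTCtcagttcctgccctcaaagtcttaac
Trim30d, chr7:104507850-104508099, minus strand, an IRF match: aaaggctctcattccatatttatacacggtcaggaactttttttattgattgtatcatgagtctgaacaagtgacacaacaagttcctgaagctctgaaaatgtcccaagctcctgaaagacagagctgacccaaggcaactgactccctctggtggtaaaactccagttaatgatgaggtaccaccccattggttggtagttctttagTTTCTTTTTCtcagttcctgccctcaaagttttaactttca
Trim12a, chr7:104315496-104315745, minus strand, a PU.1 match: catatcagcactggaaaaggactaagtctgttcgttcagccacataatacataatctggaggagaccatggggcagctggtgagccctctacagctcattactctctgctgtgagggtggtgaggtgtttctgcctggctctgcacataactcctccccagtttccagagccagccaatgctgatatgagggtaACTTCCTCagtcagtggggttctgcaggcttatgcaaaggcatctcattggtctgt
Trim5, chr7:104288107-104288356, minus strand, a PU.1 match and overlapping IRF and PU.1-IRF matches: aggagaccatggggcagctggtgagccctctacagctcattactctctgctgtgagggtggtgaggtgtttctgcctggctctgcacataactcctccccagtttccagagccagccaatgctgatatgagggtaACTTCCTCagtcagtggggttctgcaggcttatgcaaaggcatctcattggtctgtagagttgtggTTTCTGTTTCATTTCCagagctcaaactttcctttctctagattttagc
Trim12c, chr7:104353350-104353599, minus strand, a PU.1 match and overlapping IRF and PU.1-IRF matches: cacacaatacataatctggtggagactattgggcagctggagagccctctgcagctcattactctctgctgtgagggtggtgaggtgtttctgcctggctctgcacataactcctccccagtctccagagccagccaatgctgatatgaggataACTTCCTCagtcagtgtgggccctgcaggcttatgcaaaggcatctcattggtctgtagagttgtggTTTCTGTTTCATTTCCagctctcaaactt
Trim26, chr17:36836896-36837145, plus strand, overlapping IRF matches: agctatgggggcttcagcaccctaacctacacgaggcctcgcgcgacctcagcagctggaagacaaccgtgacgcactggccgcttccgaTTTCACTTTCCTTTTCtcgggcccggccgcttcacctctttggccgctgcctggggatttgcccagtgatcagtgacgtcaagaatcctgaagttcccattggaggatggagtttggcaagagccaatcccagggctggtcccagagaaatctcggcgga

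Among the cluster sequences the longest identical stretch was 118 bases between Trim30a and Trim30d, 191 bases between Trim5 and Trim12a, and 71 bases between Trim12c and either Trim5 or Trim12a, against 8 bases between Trim30a and any of Trim5, Trim12a and Trim12c. Of 67 RefSeq upstream windows of TRIM genes, 5 (7.46%) held an IRF match, which were those of Trim5, Trim12c, Trim30a, Trim30d and Trim26, against 2.98% of 32536 upstream windows of all genes. PU.1 matches were found in 5 (7.46%), those of Trim5, Trim12a, Trim12c, Trim2 and Trim24, against 2.45% of all windows. The PU.1-IRF letters were found in 5 (7.46%), against 2.31%. Windows that share the identical stretches given above were counted separately, so these matches are not independent of one another. AP-1 matches, at 7.46%, stood near the 6.73% of all windows. Of the other cluster genes, Trim34b held PU.1-IRF and AP-1 matches, and no match was found upstream of Trim6, Trim34a or Trim30c. The summits of the Trim34a and Trim12a promoter regions, however, had an IRF match within 100 bp. The upstream window of Trim12a, with a PU.1 match alone, ends 29 bp before its GENCODE start. The entry of Trim30b in the RefSeq table starts 11238 bp from its GENCODE start, so no upstream sequence is shown for it. A match describes letters only and is not evidence of binding.

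Each library was represented by its list of peaks, that is of regions called open. A list held 107391 to 160720 peaks covering 44.5 to 66.3 Mb, and since the lists carry no read counts the depth behind a peak is unknown. The measure for a locus was the covered length, meaning the number of bp of the gene body and its 3 kb flanks that lay under peaks, scaled to the mean total covered length of the libraries. Log2 fold changes of covered length were computed after 200 bp was added to each scaled length, which shrinks them most at short loci. Of the 68 members, 51 had a peak in all 8 libraries and 6 (Trim34b, Trim43c, Trim52, Trim60, Trim61 and Trim63) in none. A further 8 stayed under a mean of 200 bp and were not tested (Trim6, Trim10, Trim15, Trim30c, Trim43a, Trim43b, Trim75 and Trim80), which left 54 tested members. Per kb of locus the most open were Trim41 with 118 bp, Trim8 with 115 bp and Trim7 with 111 bp of covered length per kb, averaged over all libraries. Trim41 covered 1902, 1871, 1728 and 2224 bp in sham and 1621, 2369, 2114 and 2150 bp in BCAS. Trim8 covered 2365, 2082, 2133 and 2616 bp in sham and 2440, 2863, 3096 and 1853 bp in BCAS. Trim7 covered 3908, 3461, 3203 and 3840 bp in sham and 3218, 3635, 3125 and 4193 bp in BCAS. At these 3 loci the groups overlapped and the adjusted p in limma was 0.789 or more.

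Of the 54 tested members, 5 were higher in BCAS at an adjusted p under 0.05 in limma (9.26%), while 3.15% of all 17012 tested loci were. There were 0 members lower, against 0.376% of all tested loci, and at an unadjusted p under 0.05 the counts were 8 higher and 0 lower, against 10.6% and 4.4% of all tested loci. The 5 were Trim30a, Trim12a, Trim5 and Trim30b of the chromosome 7 cluster and Trim47 on chromosome 11. Of the 7 tested cluster members 4 were called higher, with a median log2 fold change of 0.76, and of the 47 members elsewhere 1 was, with a median of 0.063, beside a median of 0.0014 over all tested loci.

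**Figure D1:**
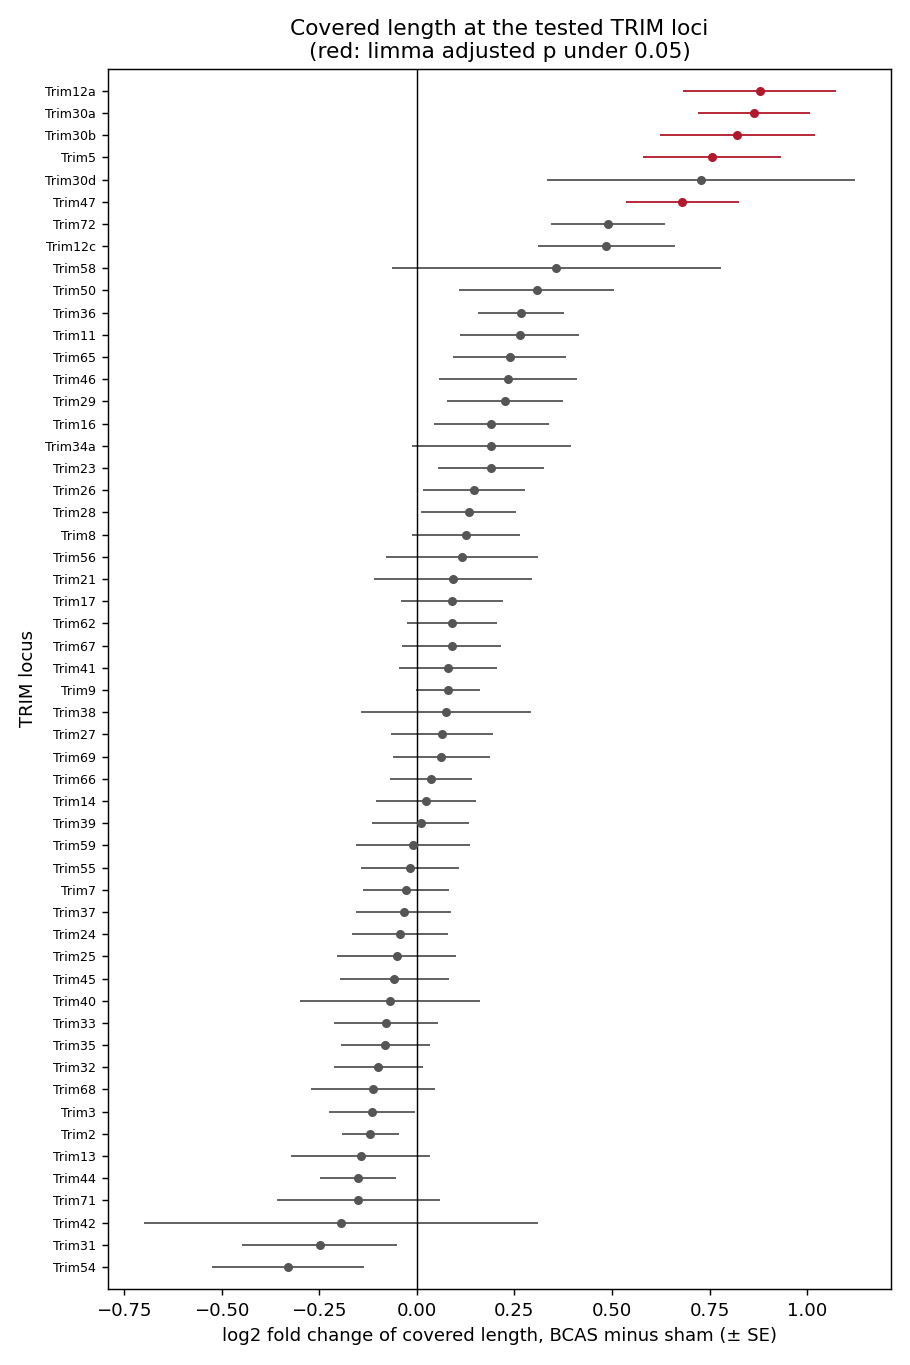
Each point is the log2 fold change (BCAS minus sham) of covered length plus 200 bp at 1 of the 54 tested TRIM loci. Each bar is ± 1 SE from limma (4 sham and 4 BCAS libraries). The 5 loci called higher, in red, lie between 0.68 and 0.88, and Trim30d at 0.73 lies among them with a wider bar.

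The libraries came from whole tissue, so that more cells of a type and more open chromatin per cell cannot be told apart. Of 12 microglial marker loci 2 were called higher in BCAS in limma, Itgam with a log2 fold change of 2.36 (adjusted p = 4.14e-04) and Gpr34 with 1.44 (adjusted p = 0.0108), and all 12 values were above 0, with a median of 0.43. Over all 17012 tested loci 3.15% were called higher and 8569 values were above 0. Of the other microglial markers, Fcrls (0.59), Olfml3 (0.42) and Tmem119 (0.89) had groups that did not overlap, as had 6.04% of all tested loci with BCAS higher. The summed covered length of the 12 was 20000 to 25967 bp in sham and 26958 to 29810 bp in BCAS. Of 10 lymphocyte and monocyte markers 1 was tested, Cd79a, which was not called (0.45, adjusted p = 0.136 in limma). The groups at Cd79a did not overlap, with 449 to 577 bp in sham and 687 to 971 bp in BCAS. Ms4a1, Ly6c2 and S100a9 were at 0 in all libraries, and Cd3d was at 0 in sham and at 275, 291, 375 and 273 bp in BCAS. The sum over the list was 449 to 577 bp in sham and 1149 to 1881 bp in BCAS. Markers of endothelial and mural cells summed to 9334 to 13475 bp in sham and 14147 to 15781 bp in BCAS. Of these 6 markers 0 were called in limma and 2 were higher at an unadjusted p under 0.05, against 10.6% of all tested loci. Neuronal markers (8), astrocyte markers (6) and oligodendrocyte markers (6) had 0 calls in limma, adjusted or not, and sums that overlapped between groups. The groups did not overlap at the endothelial gene Flt1, with 4618, 4832, 4851 and 1657 bp in sham and 6028, 6112, 6143 and 5040 bp in BCAS, where sham 4 was far below the other sham libraries, and at the neuronal gene Snap25 (-0.16 on the log2 scale). The part of these shifts in the TRIM results was not tested.

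Trim30a, whose product restrains NF-κB signaling after Toll-like receptor stimulation, covered 716, 899, 837 and 672 bp in the sham libraries and 1288, 1398, 1925 and 1774 bp in the BCAS libraries. Every BCAS library was above every sham library. Its log2 fold change was 0.86 ± 0.14 (SE), with an adjusted p of 0.00237 in limma. The study's quality table divides the libraries by read GC content into a lower class (sham 4 and BCAS 2 to 4) and a higher class (sham 1 to 3 and BCAS 1). In the lower class sham had 672 bp against a BCAS mean of 1699 bp, and in the higher class BCAS had 1288 bp against a sham mean of 817 bp. The gain lay in 2 regions. At the start site (chr7:104464843-104465789), whose upstream sequence is shown above, covered length was 238, 340, 446 and 348 bp in sham and 571, 682, 986 and 799 bp in BCAS. In an intron (chr7:104445743-104446672), where RefSeq places a second start site, it was 478, 559, 391 and 324 bp in sham and 717, 716, 939 and 974 bp in BCAS. Both regions were open in all 8 libraries, so the peaks were longer in BCAS rather than present in BCAS alone, and the number of peaks at the locus gave a log2 fold change of -0.27 (adjusted p = 0.519 in limma).

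Trim12a and Trim5 belong, with Trim12c, to the mouse relatives of human TRIM5, which binds retroviral capsids. Trim12a covered 298, 465, 598 and 320 bp in sham and 1046, 1014, 613 and 1079 bp in BCAS, with a log2 fold change of 0.88 ± 0.20 (SE) and an adjusted p of 0.0178 in limma. BCAS 3 stood only just above the highest sham library. Trim5 covered 250, 331, 358 and 358 bp in sham and 692, 767, 597 and 680 bp in BCAS, with a log2 fold change of 0.76 ± 0.18 (SE) and an adjusted p of 0.0240 in limma. Here the groups were separated by more than 200 bp. Without BCAS 1, BCAS 2 or BCAS 4 neither locus passed, with adjusted p-values in limma up to 0.0724 for Trim12a and 0.0929 for Trim5. In the lower GC class Trim12a had 320 bp in sham and a mean of 902 bp in BCAS, and in the higher class a mean of 454 bp in sham and 1046 bp in BCAS. Trim12c covered 360, 348, 514 and 409 bp in sham and 526, 709, 671 and 691 bp in BCAS, which did not overlap either, but its log2 fold change of 0.49 ± 0.18 (SE) had an adjusted p of 0.157 in limma. These loci hold near-identical DNA: 42.6% of the 100-base words in the Trim5 start region and 34.8% of those in the Trim12a start region recur elsewhere in the cluster. How reads with several equal alignments were treated is not given in the sources used here, so the split of the signal between Trim5 and Trim12a is uncertain.

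Trim30b covered 360, 608, 867 and 1044 bp in sham and 1108, 1469, 1466 and 1408 bp in BCAS, a log2 fold change of 0.82 ± 0.20 (SE) with an adjusted p of 0.0281 in limma. The sham libraries were spread widely, and the highest of them was close to the lowest BCAS library. Much of this value came from the start region of Trim12c (chr7:104352970-104353665), which lies in the downstream flank of Trim30b and was counted for both genes. That region had means of 408 bp in sham and 649 bp in BCAS, within Trim30b means of 720 and 1362.5 bp, and held all of sham 1. The start region of Trim30b itself overlapped between groups, with 0, 261, 353 and 635 bp in sham and 582, 760, 794 and 716 bp in BCAS. Without either sham 1, sham 2 or any 1 BCAS library, Trim30b missed the threshold, with adjusted p-values up to 0.0831 in limma. In the lower GC class its sham library had 1044 bp against a BCAS mean of 1447 bp, and in the higher class the sham mean was 612 bp against 1108 bp.

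Trim30d, a close relative of Trim30a, covered 0, 527, 1055 and 971 bp in sham and 809, 949, 841 and 1131 bp in BCAS. Sham 1 had no peak there, the other libraries overlapped, and the log2 fold change of 0.73 ± 0.39 (SE) had an adjusted p of 0.424 in limma. Without sham 1 it was 0.14 on the log2 scale (adjusted p = 0.878 in limma).

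**Figure D2:**
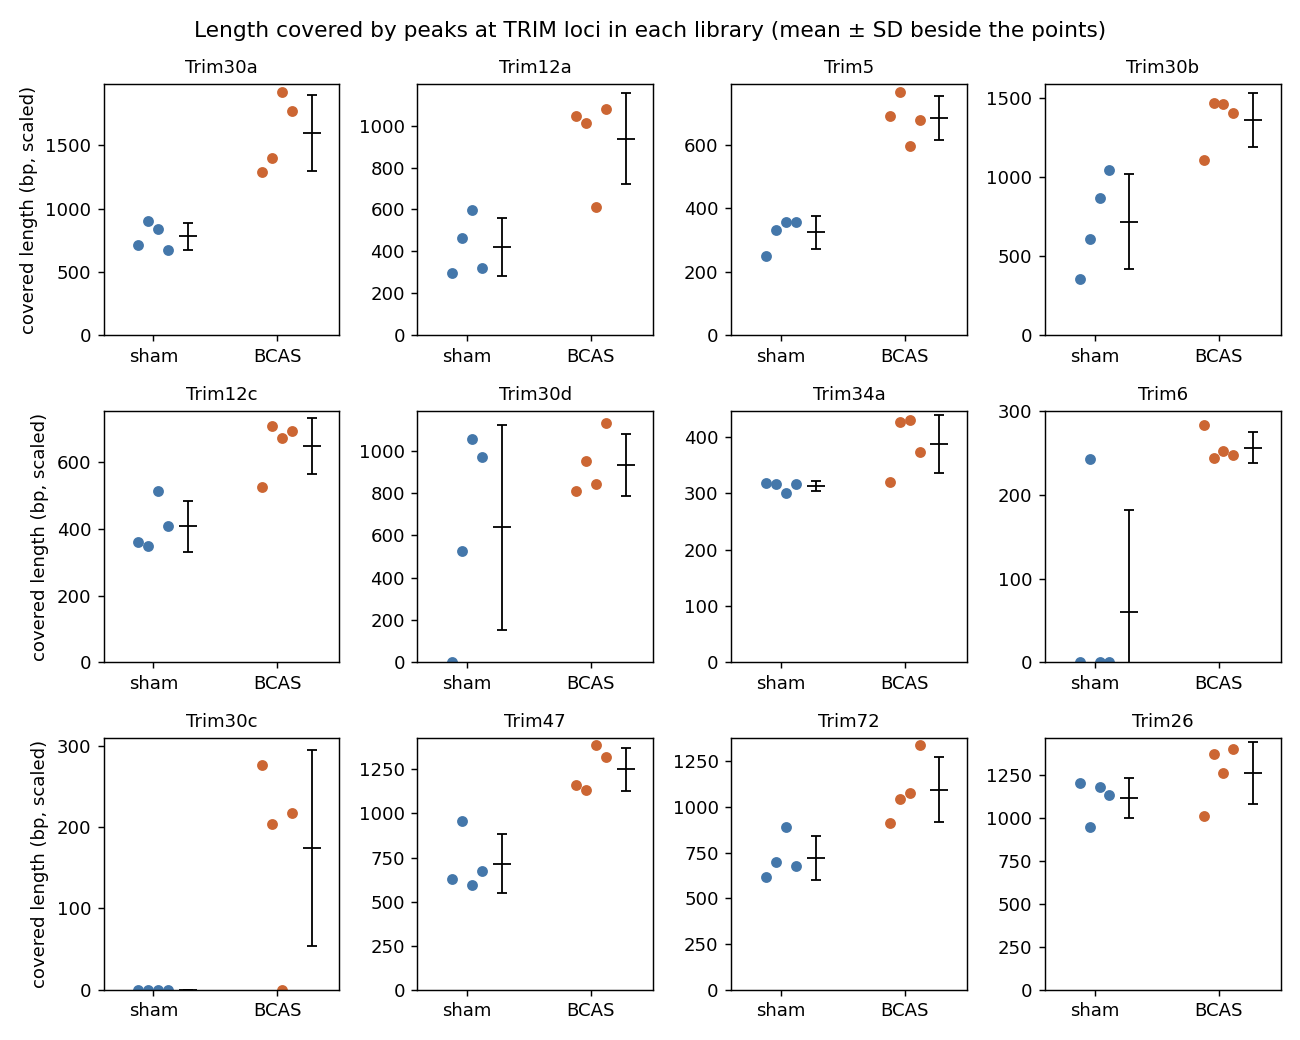
Points are the scaled covered length (bp) of 12 TRIM loci in each of 4 sham (blue) and 4 BCAS (orange) libraries, with the mean ± SD beside them, and each panel has its own vertical axis from 0. At Trim30a, Trim5 and Trim47 the groups are apart, at Trim30d and Trim26 they overlap, and Trim6 and Trim30c have libraries at 0.

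The other cluster genes held little open chromatin. Trim34a covered 318, 316, 300 and 317 bp in sham and 320, 426, 430 and 373 bp in BCAS. BCAS 1 lay within 2 bp of the highest sham library, and the log2 fold change was 0.19 ± 0.20 (SE) with an adjusted p of 0.783 in limma. Trim6, whose product makes unanchored ubiquitin chains that serve interferon signaling, was at 0 in sham 1, 3 and 4, had 243 bp in sham 2 and had 283, 244, 252 and 247 bp in BCAS. Trim30c was at 0 in all sham libraries and in BCAS 3 and had 276, 204 and 217 bp in BCAS 1, 2 and 4. Both stayed under the minimum for testing, and Trim34b was at 0 in all 8 libraries.

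**Figure D3:**
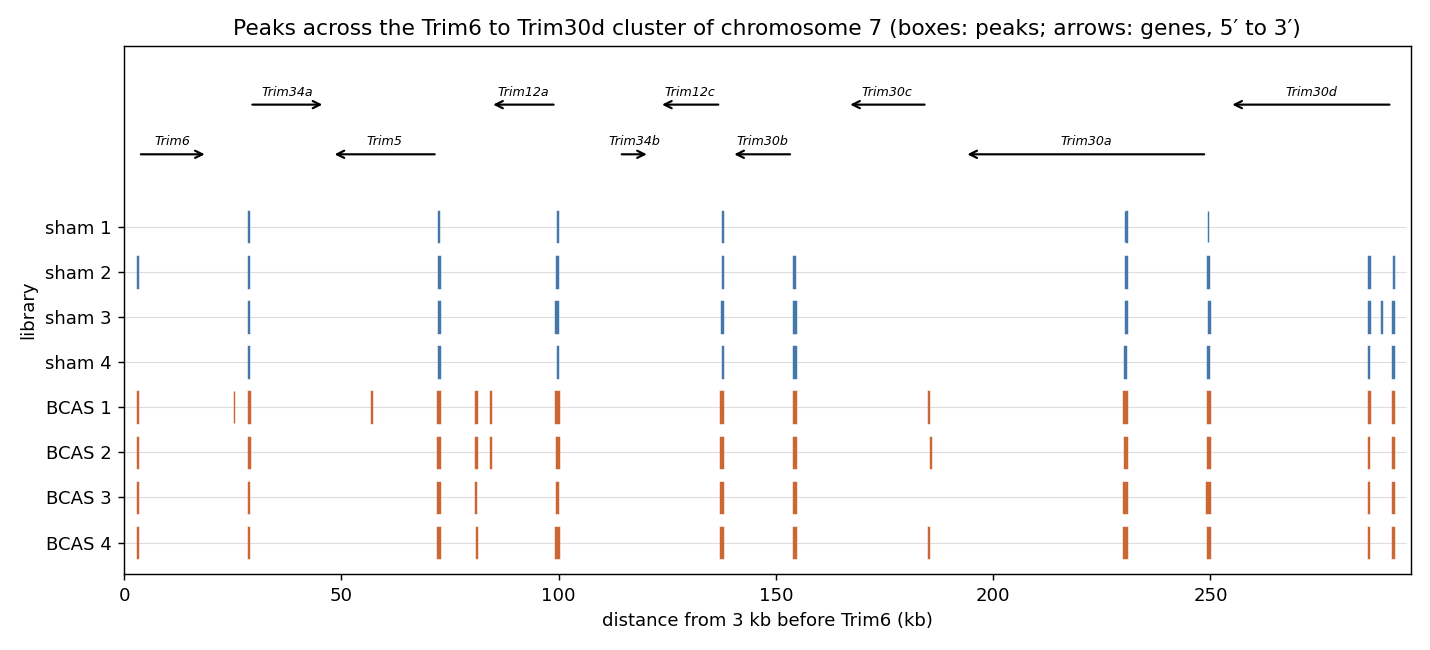
Peaks of the 8 libraries (sham blue, BCAS orange) are boxes drawn to scale along the chromosome 7 cluster, with the distance from 3 kb before Trim6 in kb on the horizontal axis and the genes as arrows. Boxes, drawn unscaled, sit mostly at the start of the genes. At Trim5 and Trim30a they are wider in every BCAS than in every sham library. At Trim12a the sham 3 box at the start site is wider than those of BCAS 2 and BCAS 3. Near 81 kb, downstream of Trim12a, boxes are present in the 4 BCAS libraries only, and those of BCAS 3 and BCAS 4 do not overlap.

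A promoter region was a region open in any library, merged over the 8 libraries, that lay over the window from 250 bp before to 50 bp after a GENCODE start site. Of the 68 TRIM promoters, 39 (57.4%) were open in all 8 libraries, 8 in some and 21 in none, and 59.1% of all protein-coding promoters were open in all 8. In 6 of them every BCAS library covered more than every sham library, namely Trim6, Trim34a, Trim5, Trim12a, Trim12c and Trim30a, all in the cluster. This was the case for 2.28% of all 14506 promoter regions, and the reverse, seen in 0 TRIM promoters, for 0.779%. The gap at Trim6 and Trim34a was under 2 bp. In unscaled length, a comparison added after the data were seen, Trim5, Trim12c and Trim30a stayed apart while Trim6, Trim34a and Trim12a overlapped. Unscaled, 8 TRIM promoters were apart with BCAS higher, the other 5 being Trim23, Trim30b, Trim30d, Trim36 and Trim65, and 1 (Trim9) with BCAS lower, beside 5.94% and 0.62% of all promoter regions.

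Peak strength was described by the rank of the peak's -log10 p within its own list, as a percentile. The Trim30a promoter stood at the 14.3, 69.4, 37.8 and 62.7 percentile in sham and at the 92.0, 86.2, 89.7 and 89.0 percentile in BCAS. The Trim5 promoter stood at 21.5, 65.4, 83.9 and 69.7 in sham and at 95.3, 92.7, 94.9 and 95.7 in BCAS. Both thus ranked higher in each BCAS list than in any sham list. Trim30b and Trim30d, whose promoter lengths overlapped between groups, also did so: where sham libraries had a peak, Trim30d stood at 40.9, 37.8 and 41.7, and in BCAS at 83.3, 83.7, 88.2 and 79.8. The Trim30b promoter ranked at 48.7, 32.8 and 50.1 in the sham libraries with a peak, while its BCAS percentiles were 88.4, 80.5, 84.9 and 75.1. By this rank the groups were apart with BCAS higher at 12 of 47 TRIM promoters with a region, with a library without a peak set to 0, and with BCAS lower at 0, beside 9.75% and 0.4% of all promoter regions. Outside the cluster these were Trim21 (87.6 to 93.0 in sham, 94.8 to 98.5 in BCAS), Trim25 (54.4 to 75.0 and 85.3 to 92.6), Trim47, Trim56 and Trim69. The lists differ in length, and a longer list lifts the percentile of the same peak. With ranks taken among the 107391 strongest peaks of each list, a comparison added after the data were seen, the counts were 13 with BCAS higher, including all 12, and 1 (Trim32) with BCAS lower, beside 9.18% and 1.21% of all promoter regions. The Trim26 promoter, which carries the IRF matches shown above, ranked between 94.3 and 97.6 in every library and did not separate the groups.

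**Figure D4:**
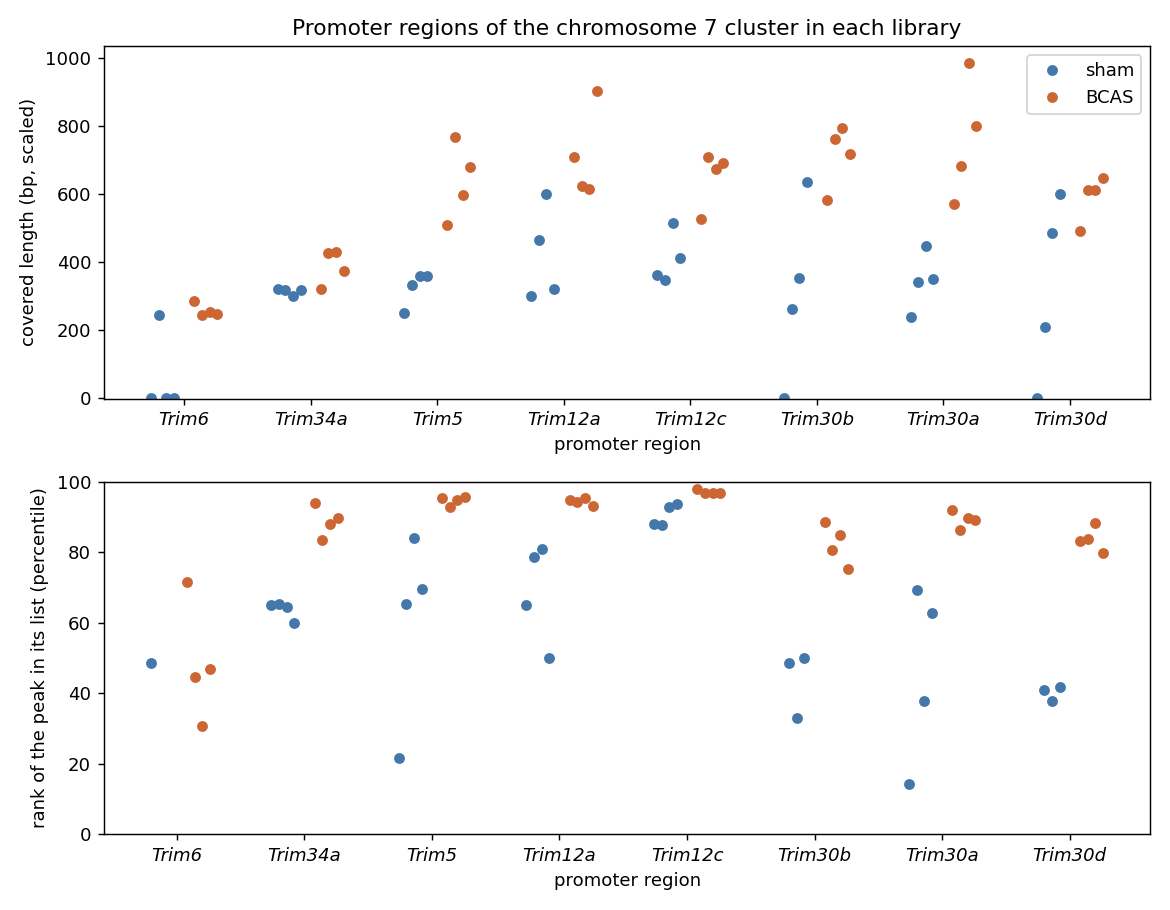
The upper panel gives the scaled covered length (bp) of the promoter regions of 8 cluster genes in each sham (blue) and BCAS (orange) library, and the lower panel the rank of the peak within its own list as a percentile, where libraries without a peak have no point. BCAS points are above all sham points in both panels for Trim34a, Trim5, Trim12a, Trim12c and Trim30a, while Trim6 overlaps in rank.

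Outside the cluster only Trim47 was called. Trim47 is a ubiquitin ligase of vascular and other cells, in a human interval that imaging studies associate with white matter hyperintensities. It covered 629, 960, 592 and 674 bp in sham and 1162, 1135, 1387 and 1321 bp in BCAS, with a log2 fold change of 0.68 ± 0.15 (SE) and an adjusted p of 0.0139 in limma. The groups did not overlap. At its RefSeq start site (chr11:116110127-116110940) covered length was 254, 280, 257 and 307 bp in sham and 528, 301, 606 and 846 bp in BCAS, where BCAS 2 fell among the sham values. Without BCAS 3 the adjusted p of Trim47 was 0.0562 in limma. With the read GC class as a model term the adjusted p-values in limma were 0.0289 for Trim30a and 0.0433 for Trim12a, and 0.0704 for Trim47, 0.0885 for Trim5 and 0.223 for Trim30b, which thus missed the threshold. By class Trim47 had 674 bp in sham against a BCAS mean of 1281 bp (lower) and a sham mean of 727 bp against 1162 bp (higher), and Trim5 had 358 bp against 681 bp and 313 bp against 692 bp.

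The neighbour of Trim47, Trim65, whose start region reaches into the flank of the Trim47 locus, had a log2 fold change of 0.24 ± 0.14 (SE) and an adjusted p of 0.496 in limma.

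Trim72, known as MG53 and needed for membrane repair in muscle, covered 614, 700, 890 and 675 bp in sham and 914, 1044, 1073 and 1340 bp in BCAS. The groups did not overlap, but the log2 fold change of 0.49 ± 0.15 (SE) had an adjusted p of 0.0807 in limma. In all, the groups were apart with BCAS higher at 8 tested members (Trim5, Trim12a, Trim12c, Trim30a, Trim30b, Trim34a, Trim47 and Trim72), against 6.04% of all tested loci. Trim12a, Trim34a and Trim72 overlapped in unscaled length. They were apart with BCAS lower at 1, Trim31, against 2.47%. Trim31, a ligase that acts on MAVS, covered 415, 375, 408 and 495 bp in sham and 288, 324, 359 and 324 bp in BCAS, with a log2 fold change of -0.25 ± 0.20 (SE) and an adjusted p of 0.660 in limma.

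The following members, which are not all of those with a part in nucleic acid sensing, did not pass the test. Trim25, which ubiquitinates the RNA sensor encoded by Ddx58, had a log2 fold change of -0.051 ± 0.15 (SE), and Trim21, a cytosolic antibody receptor, one of 0.092 ± 0.20 (SE). Trim56 had 0.12 ± 0.20 (SE), Trim14 0.024 ± 0.13 (SE), Trim38 0.075 ± 0.22 (SE) and Trim26 0.15 ± 0.13 (SE) on the same scale. All of their adjusted p-values in limma were 0.714 or more. Among 17 genes of the sensing pathways with which TRIM proteins work, 1 was called higher, Ddx58 itself, with a log2 fold change of 0.86 ± 0.20 (SE) and an adjusted p of 0.0261 in limma, and 0 were called lower. Of all tested loci 3.15% were called higher and 0.376% lower. At an unadjusted p under 0.05 the counts were 5 higher (Ddx58, Dhx58, Ikbke, Irf7 and Traf3) and 0 lower, beside 10.6% and 4.4% of all tested loci. The list had a median log2 fold change of 0.033. Of 6 tested TRIM relatives with other names (among them Pml, Mid1 and Mid2), 0 were called in limma (2 at an unadjusted p under 0.05), and Pml, the scaffold of nuclear bodies, came nearest with 0.46 ± 0.13 (SE) and an adjusted p of 0.0675 in limma. Its groups did not overlap, and neither did those of Rnf207 (0.42 on the log2 scale), as at 6.04% of all tested loci with BCAS higher.

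By domain the calls fell in the PRY-SPRY group. Of its 38 members 28 were tested and 5 called higher, with a median log2 fold change of 0.17, beside 3.15% of all tested loci called higher. Of the 5, 4 were the cluster genes, and outside the cluster 1 of 21 tested PRY-SPRY members was called. The COS box members, which bind microtubules, included 7 tested loci with 0 called in limma, 1 at an unadjusted p under 0.05, and a median of 0.079. Among them Trim46, which organises microtubules of the proximal axon, had 0.23 ± 0.18 (SE), and Trim9, which works in axon guidance by netrin, 0.079 ± 0.082 (SE). The 4 NHL repeat members (Trim2, Trim3, Trim32 and Trim71), which include ligases for neuronal cytoskeletal proteins, all had values below 0, from -0.15 to -0.098, with 0 called in limma. The 4 members with a PHD finger and bromodomain, among them the corepressor Trim28 at 0.13 ± 0.12 (SE), and the 11 tested members with other ends had 0 called, and in these 3 groups 0 also at an unadjusted p under 0.05. Differences between the domain groups were not tested.

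Merging the peaks of all libraries gave 262 regions at TRIM loci of 197916 in the genome. Of these 122 (46.6%) were open in all 8 libraries, against 36.2% of all regions. There were 3 regions (1.15%) open in every BCAS and no sham library, against 1.62% of all regions, and 0 with the reverse pattern, against 0.0945%. The first lay between Trim5 and Trim12a (chr7:104296529-104297091), reached into the downstream flank of Trim12a, and covered 384, 504, 208 and 216 bp in the BCAS libraries. Its BCAS 3 peak lay outside that flank and did not overlap its BCAS 4 peak. The longer peaks of BCAS 1 and BCAS 2 joined them into 1 merged region. The second lay in an intron of Trim16 (chr11:62847832-62848158), with 240, 241, 305 and 284 bp in the BCAS libraries. The sequences around the summits of both are shown because these merged regions were called open in 1 condition only. The window shown downstream of Trim12a holds no BCAS 3 peak. None of the motifs searched was found in either window.
Trim12a downstream, chr7:104296825-104297025, plus strand: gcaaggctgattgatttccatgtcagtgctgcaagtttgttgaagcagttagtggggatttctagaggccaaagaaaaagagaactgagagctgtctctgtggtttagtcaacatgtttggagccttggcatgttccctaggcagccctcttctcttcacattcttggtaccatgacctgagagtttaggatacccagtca
Trim16 intron, chr11:62847897-62848097, plus strand: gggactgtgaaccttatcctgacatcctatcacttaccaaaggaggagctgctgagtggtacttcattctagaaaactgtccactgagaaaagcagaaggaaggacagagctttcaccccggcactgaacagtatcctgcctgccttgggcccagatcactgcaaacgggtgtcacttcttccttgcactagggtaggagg

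The remaining region lay in an intron of Trim36, a COS box member, with 184, 223, 244 and 223 bp in the BCAS libraries and 0 in all sham libraries. A wider group of 11 regions had a peak in at least 3 more BCAS than sham libraries (4.2%, against 4.52% of all regions), and 0 in at least 3 more sham libraries (1.18%). Beside those named they lay at Trim6, Trim9, Trim11, Trim17, Trim26, Trim28, Trim46 and Trim67. By covered length 14 regions (5.34%, against 3.19%) were higher in every BCAS than in every sham library and 3 were lower, in introns of Trim44 and Trim31 and downstream of Trim2, against 2.1%. In the cluster they lay at the start sites of Trim6, Trim34a, Trim5, Trim12a, Trim12c and Trim30a, downstream of Trim12a and in an intron of Trim30a. At the neuronal gene Trim9 an intronic region had 0, 255, 401 and 0 bp in sham and 434, 455, 677 and 659 bp in BCAS. Within 100 bp of the summit 3.82% of the regions at TRIM loci had an IRF match and 2.29% a PU.1 match, beside 2.63% and 2.89% of all regions.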

How the data were processed

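ATAC-seq was measured in 4 sham and 4 BCAS cortices, 1 library per mouse. Per the labels and the study's methods, the authors used FastQC, Trim Galore, Bowtie2 2.3.4.3, SAMtools 1.9, MACS2 (peaks called per library) and DiffBind, with mm10. Peak caller options and any Tn5 shift of the reads: not given in the sources used here. Deposited peak lists give positions, an integer score, the fold enrichment as a ratio, and -log10 p and q values. Read counts were not used here, so the depth behind a peak is unknown. The values were made within each library and served only for ranks and thresholds.

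Covered length per locus was scaled, increased by 200 bp, log2 transformed and tested with limma 3.58.1 (R 4.3.3, trend of the variance) over the 17012 loci with a mean of at least 200 bp, without covariates. The adjustment was by Benjamini-Hochberg across all of these loci. Genes came from GENCODE vM21 (basic), and upstream sequences from RefSeq (GRCm38.p6). Scripts ran in Python 3.11.15 with pandas 2.3.3, numpy 2.4.6 and matplotlib 3.10.9. Peaks that overlapped by 1 bp or more were merged into regions. Named genes were the members called, those whose groups did not overlap, the chromosome 7 cluster, and the first 3 by covered length per kb, beside listed members of the domain groups. The read GC classes come from the study's library quality table (sham 1 to 3 and BCAS 1 higher, sham 4 and BCAS 2 to 4 lower). The members, lists and tests were chosen with earlier results of these data known. The values of 1 marker locus are not reported here. On simulated covered lengths for 17012 loci with 200 changed, BCAS against sham, 42.9% of 1.5-fold and 87.1% of 2-fold changes were recovered. False calls per run averaged 5.4 and 8.4. The simulated folds were those of covered length plus 200 bp, so at short loci they stand for larger changes of the length itself.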

Additional observations from a re-analysis of the deposited data

Results flagged for a closer look

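In 8 of 108 groups of 4 libraries at the tested TRIM loci, 1 library stood far from the other 3 by Dixon's criterion, which chance alone gives in about 1 of 20 groups. Sham 1 was low at Trim56 with 607 bp (others 1474 to 1525 bp), and at Trim46 with 911 bp it was also the lowest (others 1333 to 1403 bp). Sham 3 was low at Trim38 with 222 bp (others 580 to 625 bp) and at Trim34a with 299.9 bp (others 316 to 318 bp). BCAS 1 was low at Trim27 with 1316 bp (others 1665 to 1707 bp) and at Trim30b with 1108 bp (others 1408 to 1469 bp). BCAS 3 was low at Trim12a with 613 bp (others 1014 to 1079 bp) and high at Trim11 with 1943 bp (others 1229 to 1285 bp).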

How the results depend on the processing

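The count of 5 TRIM loci called higher became 1 without scaling, 3 with median of ratios scaling, 3 with start sites only, 2 with gene bodies without flanks, 2 with a term for read GC class and 0 with the number of peaks, and ranged from 2 to 5 when each library was left out. No member was called lower under any alternative. Trim30a was called in 19 of 20 alternatives, Trim47 in 16 of 20, Trim12a in 11 of 20, Trim5 in 13 of 19 and Trim30b in 8 of 19, and by number of peaks Trim30a (-0.27) and Trim30b (-0.0080) turned negative. Sham 1 to 4 held 3, 2, 3 and 2 peaks at Trim30a and 1, 2, 3 and 2 at Trim30b, against 2 at each locus in every BCAS library. Trim72 was called with peaks at -log10 q of at least 5 and with lists of equal length. Regions open in every BCAS and no sham library numbered 3, and 3 to 6 when each library was left out. When peaks had to cover at least 50% of a region, 1 region counted as open in every sham and no BCAS library. It lay downstream of Trim2, where BCAS 3 and BCAS 4 did have peaks, of 315 and 212 bp unscaled, that fell short of this share. Over all loci, the 536 higher and 64 lower calls became 222 and 1 without scaling, 348 and 24 with median of ratios scaling, 214 and 6 with start sites only, 281 and 28 with the number of peaks, and 245 and 8 with the read GC class. Same-numbered libraries did not deviate together (correlations -0.16 to 0.14, 1 of 4 best matched to its own number), so the numbers were not taken as pairs. A replicate block gave 5 TRIM loci higher and 777 and 160 calls over all loci. Depth per peak is unknown and limits the precision of each length.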
